A study of Homo sapiens with 6 samples.

Results

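The genes described here are 10 immediate early genes, EGR1, EGR2, EGR3, FOS, FOSB, JUN, JUNB, JUND, ATF3 and IER2, in SK-N-BE(2) cells, a human neuroblastoma cell line. They were taken by name with no cut on their values, but with earlier results of these data known. They were matched to the deposited Ensembl identifiers with GENCODE release 29. All 10 were among the 58302 genes of the files. Tests covered the 14462 genes whose mean reached 1 FPKM (fragments per kilobase of gene, relative to sequencing depth), of which 7 were members. EGR2, EGR3 and FOSB lay below that mean and are given by their values.

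The study asked what Prp19, encoded by PRPF19 and part of a complex that helps to activate the spliceosome, does in neuroblastoma. RNA was sequenced from 3 samples transfected with a small interfering RNA against Prp19 (siPrp19) and from 3 samples labelled NC, the siNC control of the study. Every sample was the same cell line, grown in serum and harvested, by the labels, 72 h after transfection. The study's methods give a shorter time. The labels number the samples 1 to 3 within each group but do not say whether a number marks a culture, a day or an extraction. P-values therefore measure the spread between these samples, which may be technical. In models with group and replicate number, that spread is how much the siPrp19 minus NC difference varied over the 3 same-numbered pairs. It is not a spread between independent samples of the same number and group.

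Immediate early genes are transcribed within minutes of a stimulus such as serum, growth factor or stress, from factors already present in the cell, and their mRNAs are short-lived. EGR1, EGR2 and EGR3 encode zinc finger transcription factors. FOS and FOSB proteins pair with JUN, JUNB or JUND to form the AP-1 transcription factor, and ATF3 belongs to the same class of leucine zipper proteins. Signals through MAP kinases reach many of these genes by way of serum response factor, which binds CArG boxes, and of CREB and ATF proteins, which bind the sequence TGACGTCA or its first 5 bases, TGACG. Neural crest derived cells such as neuroblastoma respond to growth factors and depolarization through the same genes.

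The upstream sequences of 6 members are shown because they carry the elements through which such signals are known to act. They were read from the RefSeq promoter windows on GRCh38.p14, on the strand of the gene, with capitals marking CArG boxes, TGACG on either strand, TGACATCA, TGACGTCA or TATAAA. EGR1 is from chr5:138465359-138465429, EGR2 from chr10:62816412-62816481 on the minus strand, FOS from chr14:75278748-75278773, JUN from chr1:58784093-58784122 on the minus strand, JUNB from chr19:12791336-12791465 and JUND from chr19:18281798-18281837 on the minus strand.
EGR1: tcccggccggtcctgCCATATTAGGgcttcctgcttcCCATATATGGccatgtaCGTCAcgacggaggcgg
EGR2: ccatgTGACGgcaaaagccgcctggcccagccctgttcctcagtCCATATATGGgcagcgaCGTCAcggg
FOS: accgtggttgagcccgTGACGtttac
JUN: ccttggggTGACATCAtgggctatttttag
JUNB: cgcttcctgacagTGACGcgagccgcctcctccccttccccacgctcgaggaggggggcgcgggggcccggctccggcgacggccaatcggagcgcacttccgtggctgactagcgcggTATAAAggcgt
JUND: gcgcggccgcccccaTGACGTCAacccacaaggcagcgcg

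The stretch shown for JUN lies upstream of its RefSeq start but inside the JUN exon of GENCODE 29, and the others overlap no GENCODE 29 exon of a member. Of the 10 members, 9 had a window, EGR2 and ATF3 more than 1, and 10 motifs were searched on both strands in the 250 bases upstream of the start. The CArG box was found in EGR1, at 105 to 96 and at 83 to 74 bases upstream, and in EGR2, at 71 to 62 bases, against 1.16% of all 35116 windows. The nearer EGR1 box and the EGR2 box have the same letters. TGACG was found in 8 of the 9 members, all but ATF3, and in 21.2% of all windows. Its 8-base form TGACGTCA was found in JUND alone among the members and in 1.65% of windows, and the TGACG matches include it. TGACATCA, the variant known from the JUN promoter, was found in JUN and ATF3 and in 2.37% of windows.

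TATAAA was found in FOS, FOSB, JUNB and ATF3 against 10.7% of windows, and CCAAT in JUN, JUNB, JUND and ATF3 against 32.0%. CCGGAAG, a sequence bound by ETS factors, was found in IER2 alone (8.52% of windows), and GGAATG, bound by TEAD factors, in EGR2 alone (11.9%). The AP-1 sequence TGACTCA, searched also with G as its middle base, was found in no member window (4.20% of all windows), nor was the EGR sequence GCGTGGGCG or GCGGGGGCG (5.37%). These matches describe letters in the windows, and binding was not measured. Sequence more than 250 bases upstream was not searched, so a motif not found in a member may lie there.

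By the reads recovered from the FPKM steps, 19058781 to 21943936 reads lay on genes in the NC samples and 22273025 to 24181789 in the siPrp19 samples. PRPF19 had 53.1, 53.1 and 64.9 FPKM in NC replicates 1, 2 and 3, and in siPrp19 it had 21.8, 28.5 and 33.6 FPKM, so that the groups did not overlap. All 10 neuroblastoma markers fixed for the check were present, with a summed level of 2129.6 to 2263 FPKM in NC and 2010.3 to 2606 in siPrp19. The 7 fibroblast or mesenchymal markers summed to 149.6 to 174 FPKM in NC and 141 to 169 in siPrp19. COL1A2 was at or below 0.0453 FPKM in every sample. The other 6 reached a mean of 1 FPKM, led by LUM at 43.6 to 57.4 FPKM and COL1A1 at 34.7 to 46.5 FPKM over all samples. Of 6 blood cell markers CD3E was listed at 0 throughout, and HBB had 15.4 FPKM in NC replicate 1 and 0 to 3.10 FPKM in the other samples. Both replicate 3 samples stood apart, with 20.0% and 20.9% of the summed FPKM on mitochondrial genes against 10.5% to 11.6% in the other 4 samples. Same-numbered NC and siPrp19 samples deviated together from their group means.

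The members spanned a wide range of levels, and AP-1 genes of the JUN family led. JUNB had 109, 182 and 55.8 FPKM in NC replicates 1, 2 and 3 and 88.3, 153 and 64.9 FPKM in siPrp19. JUND had 75.3, 97.9 and 59.6 FPKM in NC and 67.4, 88.2 and 64.4 FPKM in siPrp19. JUN had 35.8, 65.6 and 41.0 FPKM in NC and 30.6, 65.5 and 38.1 FPKM in siPrp19. In each of the 3 genes both replicate 2 samples were above the other 4, and NC and siPrp19 samples overlapped. JUNB (chr19:12791496-12793315), JUND (chr19:18279760-18281622, minus strand) and JUN (chr1:58780788-58784327, minus strand) are genes of 1 exon whose products form AP-1 with each other or with FOS proteins. HOOK2, on the opposite strand, shares 259 exon bases with JUNB and had 6.16 to 10.0 FPKM. Also on the opposite strand, AC011446.2 shares 946 exon bases with IER2 and AC055854.1 shares 164 with EGR3, each at 0 FPKM in every sample. The strand setting of the counting is not given in the sources used here, so reads in the shared bases cannot be told apart.

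The FOS family was at lower levels than the JUN family per length. FOS (chr14:75278774-75282230), the partner of JUN in the classical AP-1 dimer, had 5.69, 12.5 and 4.43 FPKM in NC and 3.94, 10.4 and 3.62 FPKM in siPrp19. FOSB (chr19:45467995-45475179) had 0.140, 0.245 and 0.555 FPKM in NC and 0.111, 0.104 and 0.893 FPKM in siPrp19, from 12 to 123 reads. FOS was high in both replicate 2 samples, whereas FOSB was high in both replicate 3 samples, and in each gene the groups overlapped. FOSL2, a FOS relative that is not a member, made up 54.7% to 75.8% of the summed FPKM of FOS, FOSB, FOSL1 and FOSL2, and FOS 11.9% to 16.4%. FOSB made up 0.157% to 3.64%. Summed over the family, JUN genes had 4.50 to 6.82 times the FPKM of FOS genes.

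Among the EGR genes EGR1 carried most of the mRNA. EGR1 (chr5:138465490-138469315) had 12.8, 71.8 and 13.6 FPKM in NC and 7.92, 68.0 and 13.5 FPKM in siPrp19, from 565 to 4438 reads. Replicate 2 was the high sample in both groups, by far. Replicates 1 and 3 lay close together in NC, whereas in siPrp19 replicate 3 had 1.70 times the FPKM of replicate 1. EGR1 made up 94.1% to 98.1% of the summed FPKM of EGR1, EGR2, EGR3 and EGR4. EGR2 (chr10:62811996-62919900, minus strand), known for its part in peripheral myelination, had 0.137, 0.585 and 0.274 FPKM in NC and 0.131, 0.926 and 0.186 FPKM in siPrp19. EGR3, an activity-regulated relative, had 0.161, 0.749 and 0.364 FPKM in NC and 0.290, 0.555 and 0.390 FPKM in siPrp19. Both were highest in replicate 2 of each group, but on 11 to 71 reads for EGR2 and 17 to 64 for EGR3, and their groups overlapped.

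ATF3 (chr1:212565334-212620777), a stress-induced factor of the ATF/CREB family, had 2.19, 3.78 and 3.75 FPKM in NC and 1.51, 3.62 and 3.21 FPKM in siPrp19. It was low in both replicate 1 samples. IER2 (chr19:13150415-13154908), a nuclear early response protein, had 13.3, 21.8 and 14.3 FPKM in NC and 17.0, 21.7 and 16.4 FPKM in siPrp19. Here replicate 2 was highest and both groups met at the same level in that pair. In order of mean FPKM the members were JUNB, JUND, JUN, EGR1, IER2, FOS, ATF3, EGR3, EGR2 and FOSB. Neighbours in this order overlapped in range over the 6 samples except IER2 over FOS, with 2.58 times the mean, and ATF3 over EGR3, with 7.20 times. In bulk RNA, fewer cells expressing a gene and less RNA per cell cannot be told apart.

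**Figure D1:**
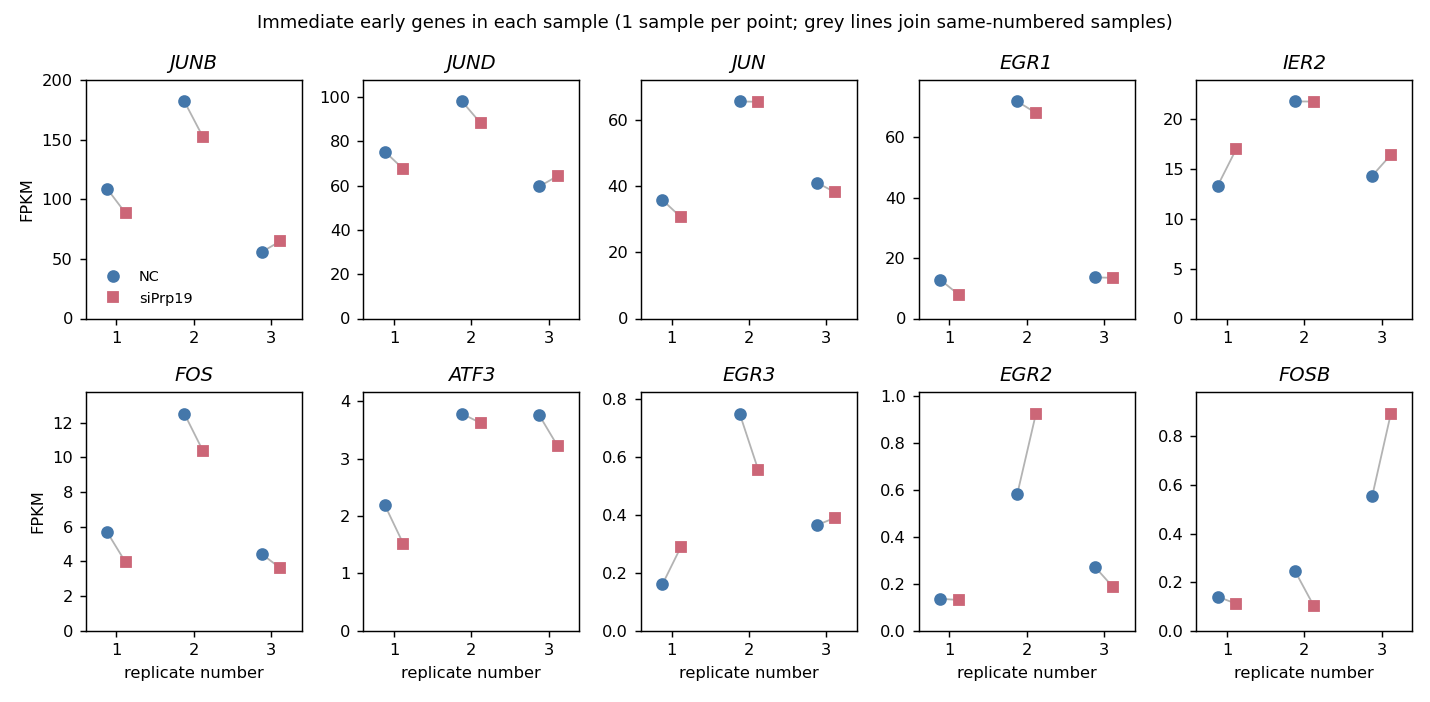
FPKM of the 10 members (vertical axes, from 0) by replicate number (horizontal axes), 1 point per sample, NC as circles and siPrp19 as squares, with grey lines joining same-numbered samples. EGR1 stands at 71.8 and 68.0 FPKM in replicate 2 and at 7.92 to 13.6 FPKM in the other 4 samples, and FOSB is highest in both replicate 3 samples.

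Between replicate numbers, all 7 tested members differed by limma's moderated F test in a model with group and replicate number (adjusted p from 0.00208 for FOS to 0.0165 for IER2). This is read against a background in which 7175 of the 14462 genes tested, or 49.6%, differed between numbers in the same test. All 7 were higher in replicate 2 than in replicate 1 by limma with Benjamini-Hochberg adjustment, while 12.4% of all genes tested were. Over all genes the call of a direction depended on the scaling, with 1800 higher and 1076 lower on the deposited scale, 1105 and 1863 after rescaling to TPM, and 1246 and 1277 after quantile normalization. The differences of all 7 members stayed above 0 in each, but 6 were called with TPM, where JUND was lost, and 5 after quantile normalization, where JUND and IER2 were lost. The median difference of the 7 members was 0.98 on the log2(FPKM + 0.1) scale, beside 0.02 over all genes tested. The pseudocount shrinks differences of weakly expressed genes on this scale.

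EGR1 showed the widest gap of the members. It was 2.78 log2 units higher in replicate 2 than in replicate 1 (SE 0.18, adjusted p = 0.0205 by limma), the gene ranked 19 of 14462 for this difference. Within NC the FPKM of replicate 2 was 5.59 times that of replicate 1, and within siPrp19 it was 8.58 times. Against replicate 3 these folds were 5.28 in NC and 5.05 in siPrp19. The rise of EGR1 in replicate 2 was thus present in both groups.

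FOS followed with a difference of 1.25 log2 units (SE 0.09), with 2.20 times the FPKM of replicate 1 in NC and 2.63 times in siPrp19. JUN differed by 0.98 (SE 0.07), JUNB by 0.76 (SE 0.14) and JUND, the JUN gene known to be expressed more steadily in resting cells, by 0.38 (SE 0.08). ATF3 differed by 0.98 (SE 0.14) and IER2 by 0.53 (SE 0.10). Their adjusted p-values by limma ran from 0.0205 for FOS and JUN to 0.0387 for JUND. Over the means of each number, EGR2 and EGR3 had 5.64 and 2.89 times the FPKM of replicate 1 in replicate 2, and FOSB 1.39 times.

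These calls depended on single samples, the filter and the variance model. Of the 7, limma called 0 without NC replicate 2 or without siPrp19 replicate 2, 1 without siPrp19 replicate 1 (EGR1), and 3 without NC replicate 1. It also called 0 with no filter on low values and 0 with robust estimation in place of the variance trend, and 6 with no group term, where IER2 was lost. All 7 differences stayed above 0 in each of these fits. The F test called 7 of 7 in each of these fits but without NC replicate 2, where JUND and IER2 were lost, and with no filter, where IER2 was lost.

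Replicate 3 was lower than replicate 2 for 6 of the 7 tested members, all but ATF3, against 24.5% of all genes tested. EGR1 fell by 2.36 log2 units (SE 0.18, adjusted p = 0.00134 by limma) and FOS by 1.49 (SE 0.09, adjusted p = 0.000974). JUNB fell by 1.47, JUN by 0.73, JUND by 0.59 and IER2 by 0.50, with adjusted p-values by limma of 0.00203 to 0.0123. The median over the 7 members was -0.73, beside -0.00014 over all genes tested. ATF3 differed by -0.09 (adjusted p = 0.632), and IER2 lost its call without NC replicate 2 or 3 or siPrp19 replicate 3.

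Between replicates 1 and 3, 2 of the 7 tested members differed. ATF3 alone among them was higher in replicate 3 than in replicate 1, by 0.89 log2 units (adjusted p = 0.0127 by limma), against 15.8% of genes tested. JUNB alone was lower, by -0.70 (adjusted p = 0.0216), against 14.0%. The ATF3 call was lost without NC replicate 3 and without siPrp19 replicate 1 or 3, and the JUNB call without replicate 1 of either group, with no filter on low values and with robust estimation in place of the variance trend. JUND was called lower with TPM, after quantile normalization and without siPrp19 replicate 3, JUN higher with the minimum mean raised to 5 FPKM, and EGR1 higher without NC replicate 1. Limma voom on recovered reads called 5 of the 7. It gave EGR1 (0.41, adjusted p = 0.00416), JUN (0.26, adjusted p = 0.00390) and ATF3 as higher, against 23.3% of genes in that fit, and JUNB and JUND as lower, against 19.3%. Where replicate 3 enters, the larger mitochondrial share of its samples moved with the replicate number, and its part in these differences was not tested.

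By ranks alone, both replicate 2 samples lay above the other 4 samples for 6 of the 7 tested members, against 24.3% of genes tested, and ATF3 was the exception. Of the 3 low members EGR2 and EGR3 did so too, against 8.14% of the genes above 0 and below a mean of 1 FPKM. FOSB instead had both replicate 3 samples above the other 4, against 7.19% of such genes. Its replicate 3 FPKM was 3.96 times that of replicate 1 in NC and 8.05 times in siPrp19. In the fit with no filter on low values, limma gave adjusted p-values between numbers of 0.127 for EGR2, 0.152 for FOSB and 0.277 for EGR3. Limma voom on recovered reads, also with no filter, called all 3, with adjusted p-values of 8.9e-06 for EGR2, 1.0e-08 for FOSB and 0.00214 for EGR3, in a fit that called 26.0% of genes. The call of a difference in these 3 genes thus depended on the test.

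Between siPrp19 and NC, no member passed the test. By limma without a block, 0 of the 7 tested members passed an FDR of 0.05, as did 0 of all genes tested, or 0%, with 225 genes and 0 members at an unadjusted p under 0.05. In the blocked fit, with a term for the replicate number, the count was again 0 of 7 and 0% of all genes, with 2265 genes and 1 member, FOS, at an unadjusted p under 0.05. PRPF19, the target of the knockdown, was not called in either fit, at a log2 difference of -1.04 (adjusted p = 0.190 by limma with the block). Limma voom on recovered reads with the block did call it (adjusted p = 1.0e-11). Both limma fits on FPKM thus missed the fall of the target, so the lack of calls does not show that the members were unchanged. NC and siPrp19 samples overlapped for all 10 members. Exact two-sided permutation tests of 3 against 3 samples gave p from 0.50 to 1.00, where the smallest possible is 0.10. The log2 difference was below 0 for 6 of the 7 tested members and for 51.0% of all genes tested, with a median of -0.11 beside -0.0040 over all genes.

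Within same-numbered pairs, FOS had a similar ratio of siPrp19 to NC each time. Its means were 7.55 ± 4.35 FPKM (SD, n = 3) in NC and 5.98 ± 3.81 FPKM (SD, n = 3) in siPrp19. Its siPrp19 FPKM was 0.693 of NC in pair 1, 0.829 in pair 2 and 0.817 in pair 3, with 95% counting intervals of 0.593 to 0.807, 0.746 to 0.922 and 0.691 to 0.965. Its log2 difference was -0.36 with a standard error of 0.52 without the block and 0.08 with it (adjusted p = 0.204 by limma with the block). When limma voom was applied to recovered reads in the blocked design, FOS was the 1 member called, at -0.35 (SE 0.09, adjusted p = 0.0192). That fit called 7.09% of all genes, and 4.43% as lower.

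EGR1 had a mean of 32.8 ± 33.8 FPKM (SD, n = 3) in NC and 29.8 ± 33.2 FPKM (SD, n = 3) in siPrp19. It was lower in 3 of 3 pairs, but unevenly. The ratio was 0.617 in pair 1 (95% counting interval 0.554 to 0.687), 0.947 in pair 2 (0.907 to 0.988) and 0.989 in pair 3 (0.902 to 1.08). The log2 difference of -0.26 had a standard error of 0.96 without the block and 0.14 with it (adjusted p = 0.438 by limma with the block). The gap thus lay mainly in pair 1. Without NC replicate 2, siPrp19 replicate 1 or siPrp19 replicate 3 in the fit without the block, the difference of EGR1 was 0.55, 0.38 or 0.00. Each of these fits leaves a replicate number in 1 group only, so differences between numbers enter the value. FOS, JUN and ATF3 also reached values above 0 with a sample left out, at most 0.076, 0.15 and 0.11.

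ATF3 and JUN were also lower in 3 of 3 pairs, so that 4 of the 7 tested members were, against 21.3% of all genes tested. The ATF3 ratios were 0.691, 0.957 and 0.856 in pairs 1, 2 and 3, and those of JUN 0.854, 0.998 and 0.929. The counting intervals of ATF3 in pairs 2 and 3 and of JUN in pair 2 include 1. Their log2 differences were -0.26 (standard error with the block 0.11, adjusted p = 0.356) and -0.11 (0.06, adjusted p = 0.411).

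JUNB and JUND had ratios below 1 in pairs 1 and 2 and above 1 in pair 3. JUNB ratios were 0.811, 0.837 and 1.16, and JUND ratios 0.896, 0.900 and 1.08, with every counting interval clear of 1. IER2 was the tested member with a difference above 0, at 0.18 (standard error with the block 0.08, adjusted p = 0.354 by limma), with ratios of 1.28, 1.00 and 1.15. The low members gave no common direction, with ratios of 0.960, 1.58 and 0.678 for EGR2, 1.81, 0.741 and 1.07 for EGR3 and 0.791, 0.423 and 1.61 for FOSB. Only the interval of EGR2 in pair 2 (1.05 to 2.41) and those of FOSB in pairs 2 (0.193 to 0.880) and 3 (1.17 to 2.22) excluded 1. Counting intervals cover the counting of reads only, and PCR copies are not independent molecules.

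**Figure D2:**
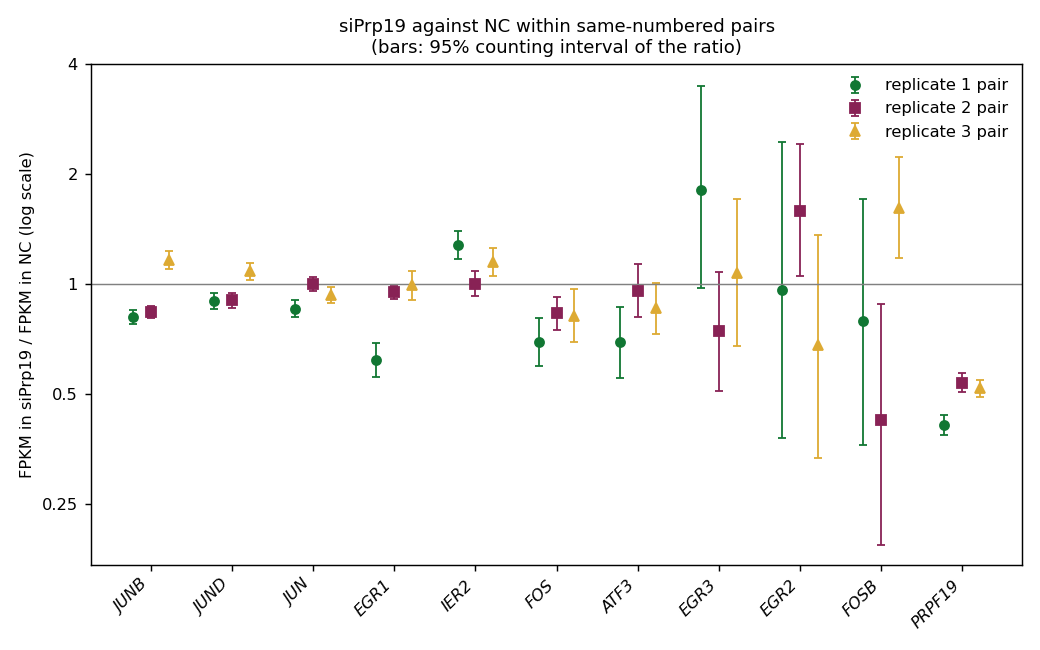
Ratio of siPrp19 to NC FPKM (vertical log axis) for the 10 members and PRPF19 in same-numbered pairs 1, 2 and 3, with bars for the 95% counting interval. FOS lies below 1 in all 3 pairs at 0.693, 0.829 and 0.817, EGR1 mainly in pair 1 at 0.617, and PRPF19 at 0.410, 0.536 and 0.517.

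On the log2 scale, replicate number held 97.4% of the sum of squares of EGR1 over the 6 samples and the group 1.11%. In JUN these shares were 97.1% and 1.76%, in JUNB 95.5% and 0.857%, and in FOS 92.4% and 6.94%. JUND had 92.1% between numbers, ATF3 88.5% and IER2 81.6%, with 11.3% between groups for IER2, the largest group share of the 7. The median over the 7 tested members was 92.4% between numbers and 1.76% between groups, beside medians of 80.9% and 5.68% over all genes tested. PRPF19, the target of the knockdown, had the opposite makeup, with 11.1% between numbers and 86.6% between groups.

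**Figure D3:**
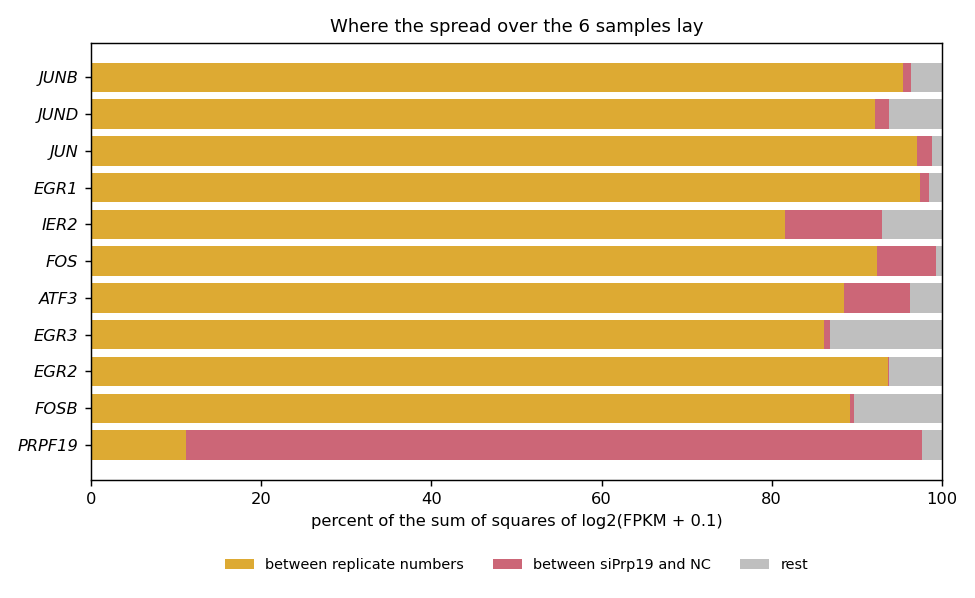
Share of each gene's sum of squares of log2(FPKM + 0.1) over the 6 samples (horizontal axis, percent) that lay between replicate numbers, between siPrp19 and NC, and in the rest, for the 10 members and PRPF19. Replicate number holds 81.6% to 97.4% in the members, and the group holds 86.6% in PRPF19.

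**Figure D4:**
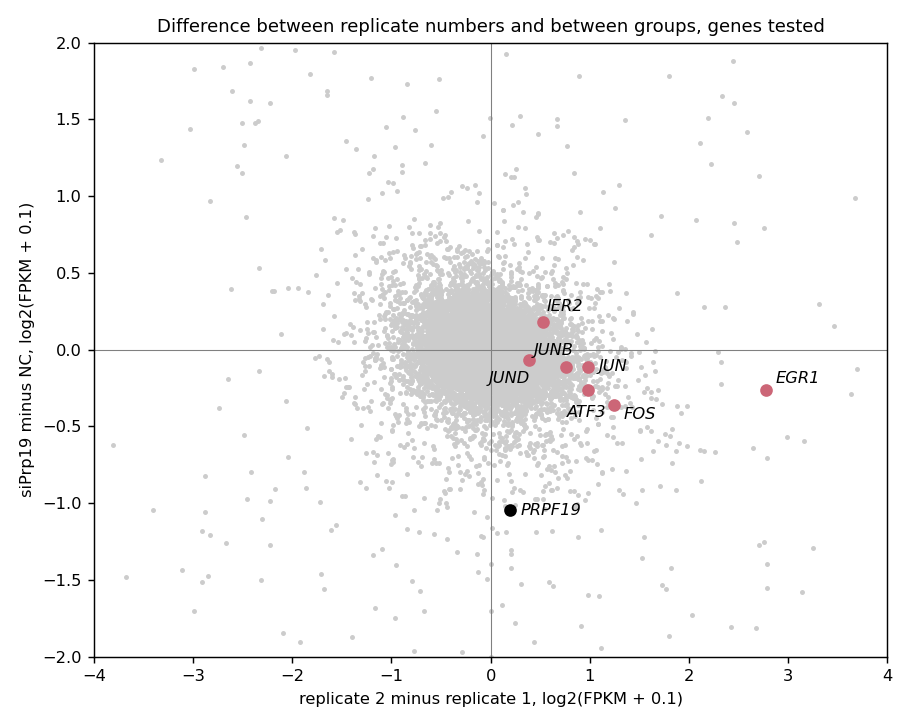
Difference of replicate 2 minus replicate 1 (horizontal axis) against siPrp19 minus NC (vertical axis), both on the log2(FPKM + 0.1) scale, for the genes tested in grey, the 7 tested members in red and PRPF19 in black, with 66 genes outside the axes. The members lie to the right of 0, EGR1 farthest at 2.78, and within 0.36 of 0 on the vertical axis.

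The surrounding genes were read from lists that partly overlap. In each list below the genes named are those with the widest differences between numbers among the genes called by limma, a narrowing chosen after the values were seen, and those with the widest difference between siPrp19 and NC. By limma without or with the block, no gene of any list passed an FDR of 0.05 between siPrp19 and NC. Such differences are therefore given as values. Both fits also missed the fall of PRPF19, so the lack of calls does not show that these genes were unchanged. Calls of the genes in these lists by voom with the block are not given here. The counts between numbers are read against all genes tested, of which 49.6% differed between numbers, 12.4% were higher and 7.44% lower in replicate 2 than in replicate 1, and 24.5% were lower in replicate 3 than in replicate 2. Of 36 other immediate early genes 32 were tested, 29 differed between numbers, 25 were higher in replicate 2 than in replicate 1 and 0 lower, and 24 were lower in replicate 3 than in replicate 2. Their median difference was 0.71 between replicates 2 and 1 and -1.03 between replicates 3 and 2.

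BHLHE40, a transcriptional repressor of the clock and hypoxia responses, had 26.1, 40.9 and 1.59 FPKM in NC replicates 1, 2 and 3 and 24.5, 44.7 and 1.99 FPKM in siPrp19. KLF10, a TGF-beta induced early gene, had 28.1, 67.2 and 9.89 FPKM in NC and 22.3, 67.2 and 11.4 FPKM in siPrp19. Both were lowest in replicate 3 and highest in replicate 2 of each group. MYC, an early gene of growth factor signalling, had 1.65, 3.73 and 0.792 FPKM in NC and 0.924, 2.79 and 0.833 FPKM in siPrp19. It was 1.31 log2 units higher in replicate 2 than in replicate 1 (adjusted p = 0.0315 by limma). Of the same list, 27 of 32 genes had a siPrp19 minus NC difference below 0, against 51.0% of all genes tested. The median was -0.14, beside -0.0040 over all genes, and the widest were CCN2 at -0.91 and FOSL1 at -0.71.

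Of the AP-1 partners and EGR co-regulators 14 were tested, 11 differed between numbers, and 6 were higher in replicate 2 than in replicate 1 with 0 lower. NAB2, a corepressor that EGR proteins bind and induce, had 38.7, 61.6 and 25.4 FPKM in NC and 35.7, 65.4 and 26.1 FPKM in siPrp19. MAFK, a small MAF protein, was 1.08 log2 units higher in replicate 2 than in replicate 1. In siPrp19 minus NC, JDP2 differed by -0.23 and MAFG by -0.16.

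Of 12 tested transcription factors and cofactors listed upstream of early genes, 7 differed between numbers, or 58.3%, near the 49.6% of all genes tested. Of the 12, 4 were higher in replicate 2 than in replicate 1. MEF2D and MEF2A were 0.75 and 0.70 log2 units lower in replicate 3 than in replicate 2. Between siPrp19 and NC, YAP1 differed by -0.92 and MEF2A by -0.35.

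Of 21 tested genes of the MAP kinase pathway 12 differed between numbers, or 57.1%, also near the share of all genes, with 7 higher and 1 lower in replicate 2 than in replicate 1. MAP2K1, which encodes the kinase MEK1, had the widest range, with replicate 3 lower than replicate 2 by 1.03 log2 units. It was 0.58 higher in replicate 2 than in replicate 1. MAP2K6, which encodes a p38 activating kinase, was the gene that was lower in replicate 2 than in replicate 1, by -0.88. Between siPrp19 and NC, MAP2K1 differed by -0.29 and MAP2K4 by -0.19. Of 18 genes on the MAP kinase feedback list, 13 differed between numbers, with 10 higher and 0 lower in replicate 2 than in replicate 1. DUSP1, a MAP kinase phosphatase, had 20.4, 39.4 and 15.2 FPKM in NC and 14.7, 35.3 and 15.7 FPKM in siPrp19, and IER3 had 97.5, 170.4 and 54.0 FPKM in NC and 79.8, 175 and 54.6 FPKM in siPrp19. In both genes replicate 2 was highest in each group. SPRED1 differed by -0.37 and PHLDA1 by -0.31 between siPrp19 and NC.

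Of 10 genes of the integrated stress response 9 differed between numbers, with 7 higher and 0 lower in replicate 2 than in replicate 1. DDIT4, an inhibitor of mTORC1, was 3.17 log2 units lower in replicate 3 than in replicate 2, and CHAC1, a target of ATF4, was 2.06 higher in replicate 3 than in replicate 1. Between siPrp19 and NC, DDIT4 differed by 0.26 and CEBPB by -0.18. Of 8 heat shock genes 7 differed, with 4 higher in replicate 2 than in replicate 1, and HSPA1A was 0.91 higher and BAG3 0.68. HSPA1A and HSPA1B are near-identical copies, so reads may be split between them. HSP90AA1 differed by -0.10 and HSPA1B by 0.05 between siPrp19 and NC.

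Of 9 genes that bind or degrade AU-rich mRNAs, a class to which many early gene transcripts belong, 7 differed between numbers. ZFP36, which directs such mRNAs to decay, was 0.71 log2 units higher in replicate 2 than in replicate 1 and 1.35 lower in replicate 3 than in replicate 2. ZFP36L2 was 0.80 higher in replicate 3 than in replicate 1 and differed by -0.59 between siPrp19 and NC, and ZFP36L1 by -0.22.

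In the marker lists few genes were higher in replicate 2 than in replicate 1. Of 10 neuroblastoma markers 9 differed between numbers, with 1 higher and 2 lower in replicate 2 than in replicate 1 and 8 lower in replicate 3 than in replicate 2. DBH, the enzyme that makes noradrenaline, had 44.2, 30.0 and 3.49 FPKM in NC and 41.9, 26.7 and 3.94 FPKM in siPrp19, and TH was 0.73 log2 units lower in replicate 3 than in replicate 1. CHGB differed by 0.22 between siPrp19 and NC. Of 6 tested fibroblast or mesenchymal markers 2 differed between numbers, LUM, which was 0.37 lower in replicate 2 than in replicate 1, and COL1A1, with a range of 0.33 over the numbers. LUM and COL1A1 differed by -0.11 and -0.09 between siPrp19 and NC. HBB, the blood marker that was tested, differed by -2.50 between siPrp19 and NC and also passed the F test between numbers. The part of these markers in the members' differences was not tested.

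**Figure D5:**
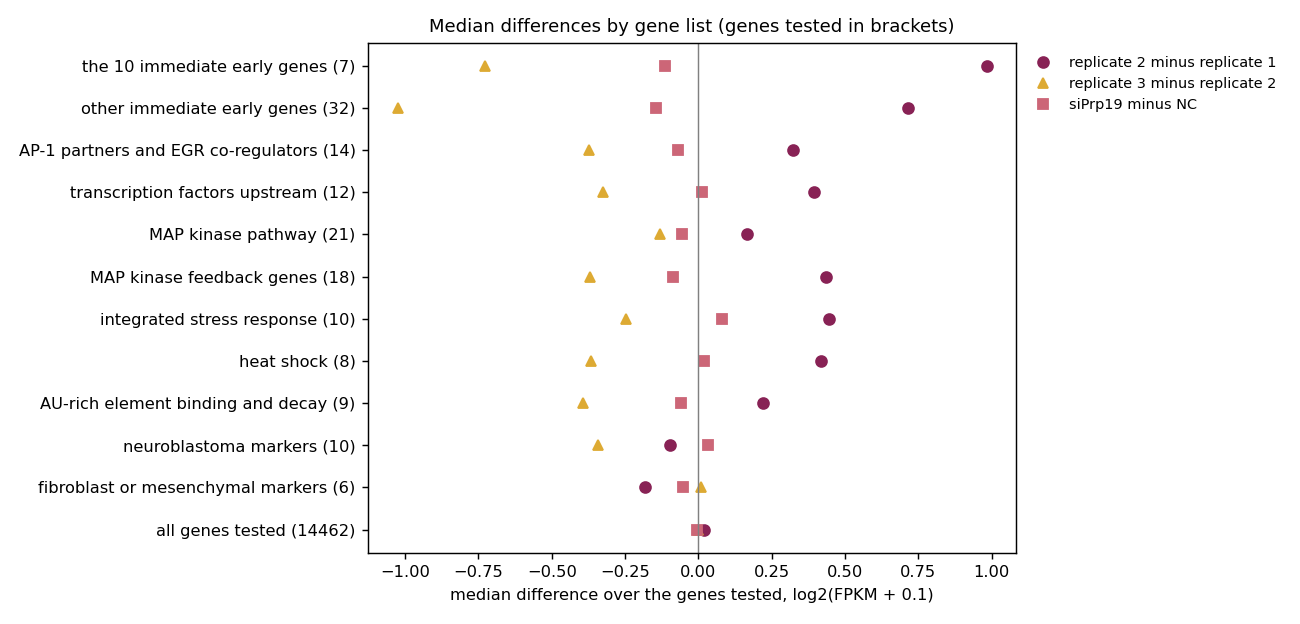
Median difference over the tested genes of each list (horizontal axis, log2(FPKM + 0.1)) for replicate 2 minus replicate 1, replicate 3 minus replicate 2 and siPrp19 minus NC, with the number of genes tested in brackets. The 10 immediate early genes stand at 0.98, -0.73 and -0.11 and the other immediate early genes at 0.71, -1.03 and -0.14.

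The genes most like EGR1 over the 6 samples, by Pearson correlation of log2(FPKM + 0.1) among the genes tested, were C6orf106 (r = 0.998), NFKBIA (0.998), CREBBP (0.997), EP300 (0.996) and DHX15 (0.996). Those most like FOS were PANX1 (0.999), GNA13 (0.999), UBL3 (0.998), UBE2Q1 (0.998) and PGM2L1 (0.997). Those most like JUN were USP47 (0.999), EIF1B (0.996), DNAJB14 (0.995), DHX15 (0.995) and KLF6 (0.994). These values describe 6 points that fall into 3 same-numbered pairs. NFKBIA, the inhibitor of NF-kappaB and itself an early gene, had 19.9, 35.2 and 19.0 FPKM in NC and 16.4, 33.5 and 19.7 FPKM in siPrp19, and EP300, a histone acetyltransferase, 11.2, 15.2 and 11.3 FPKM in NC and 10.7, 15.1 and 11.5 FPKM in siPrp19. Both had replicate 2 high in each group, with a smaller fold than EGR1.

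Because Prp19 acts in splicing, the members were also set out by exon number of their principal transcript. JUN, JUNB, JUND and IER2 have 1 exon, EGR1, EGR2 and EGR3 have 2, and FOS, FOSB and ATF3 have 4. The siPrp19 minus NC differences of the 4 tested members with 1 exon ran from -0.11 to 0.18 with a median of -0.09. Those of the 3 tested members with more exons, EGR1, FOS and ATF3, ran from -0.36 to -0.26 with a median of -0.26. The low members with more exons did not share this range, with 0.053 for EGR2, 0.095 for EGR3 and -0.12 for FOSB in the fit with no filter. Over all tested protein-coding genes the medians were 0.00018 for 268 genes of 1 exon and -0.0051 for 11029 genes of 2 or more. With 4 and 3 members the contrast was not tested, and unspliced RNA was not measured here.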

How the data were processed

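RNA-seq of 6 SK-N-BE(2) samples was used, 3 NC and 3 siPrp19, grouped by the treatment in the labels. The authors deposited 1 table of FPKM values per sample. The submitters' processing notes name HISAT2 2.0.5, featureCounts 1.5.0-p3 and hg38. Median-of-ratios factors of the deposited FPKM values were equal in all samples, so the values already carry such a scaling, and they were used as deposited. Of 58302 identifiers 58039 were found in GENCODE 29. Multiplied by GENCODE 29 exon length, 95.8% of the 37521 of these not at 0 throughout gave whole reads in every sample within 0.02 of a read, and counting intervals rest on those reads.

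The study's methods name DESeq2 without a block. Since the files hold FPKM, limma 3.58.1 in R 4.3.3 (lmFit, eBayes with trend) was run on log2(FPKM + 0.1) for the 14462 genes whose mean reached 1 FPKM, at an FDR of 0.05 (Benjamini-Hochberg, over all of them). Differences between replicate numbers came from an additive model of group and number. Deviations of same-numbered samples from their group means, by the numbers in the labels, correlated across genes with r of 0.381, 0.568 and 0.639, which pairs the samples, so the blocked fit is given too. The fits were also run on simulated data, with planted differences larger than those of the members between siPrp19 and NC. That run does not bear on differences as small as theirs. Tables, permutation tests and plots used Python 3.11.15, numpy 2.4.6, pandas 2.3.3, scipy 1.17.1 and matplotlib 3.10.9.

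The members, lists and tests were chosen with earlier results of these data known. Named genes are the members, PRPF19, MYC, in each list the genes called or else the widest differences, and the 5 genes most correlated with EGR1, FOS and JUN. The value of 1 gene that this rule names is not reported here. Alternatives were a pseudocount of 1, no filter, a minimum mean of 5 FPKM, TPM, quantile normalization, robust estimation with no variance trend, the block, no group term, voom on recovered reads and each sample left out.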

Additional observations from a re-analysis of the deposited data

How the results depend on the processing

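Between siPrp19 and NC, limma without a block gave 0 genes (225 at an unadjusted p under 0.05), and the replicate block gave 0 (2265) and changed no member's call. With robust estimation and no variance trend the count was 1 gene, which also passed a fold change of 1.5. The blocked fit limited to a minimum mean of 5 FPKM gave 124 genes (24 past that fold change) and voom with the block 965 (71). Leaving out each sample in the fit without the block gave 0 to 0, and the blocked fits were not run with a sample left out. Between replicate numbers 7175 genes were called, 4214 with no filter and 4123 to 5563 with a sample left out. Replicate 2 minus 1 gave 2876 genes, 0 with no filter, 1 with robust estimation and no trend, 4889 with voom, 1647 with no group term and 3 to 2818 with a sample left out. Replicate 3 minus 1 gave 4300, 1978 with no filter and 1251 to 3495 with a sample left out, and replicate 3 minus 2 gave 6854 and 4185 to 6296. The cause of these shifts was not tested. In replicate 2 minus 1, JUND lost its call with TPM and quantile normalization and IER2 with the second and with no group term. In replicate 3 minus 1, 53.1% of the called genes were higher, and 38.2% with TPM. In the fit without the block, where leaving out 1 sample leaves its number in 1 group only, the siPrp19 minus NC differences of the members other than IER2 turned sign, though the ratios of EGR1, FOS, JUN and ATF3 were below 1 in all 3 pairs. The ranges were -1.16 to 0.55 for EGR1, -0.61 to 0.46 for EGR2, -0.33 to 0.52 for EGR3, -0.84 to 0.076 for FOS, -0.87 to 0.28 for FOSB, -0.42 to 0.15 for JUN, -0.56 to 0.29 for JUNB, -0.24 to 0.12 for JUND and -0.51 to 0.11 for ATF3. That of FOSB was also above 0 with a pseudocount of 1, at 0.024 without and 0.024 with the block, and in voom with the block, at 0.19. Between numbers, none of the differences that turned sign was called: FOSB in replicate 2 minus 1 (-0.25 to 0.72 with a sample left out), ATF3 in replicate 3 minus 2 (-0.24 to 0.062) and IER2 in replicate 3 minus 1 (-0.10 to 0.15, -0.056 with TPM and -0.0018 with quantile normalization).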
